A study of Arabidopsis thaliana with 27 samples.

Results

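Transcripts of 10 genes that restrain cytokinin signalling were followed in Arabidopsis thaliana plants with altered auxin response, in their stamens and their gynoecia. The genes are 6 type-A response regulators (ARR4, AT1G10470; ARR5, AT3G48100; ARR6, AT5G62920; ARR7, AT1G19050; ARR15, AT1G74890; ARR16, AT2G40670) and 4 cytokinin oxidases (CKX3, AT5G56970; CKX5, AT1G75450; CKX6, AT3G63440; CKX7, AT5G21482), picked by name and locus out of the 33602 loci with a count. Their levels were described over 27 libraries in 8 groups of tissue and genotype, all in the Columbia background. Stamens came from stage 11 buds of 1.5 to 1.8 mm, and gynoecia from stage 12 flowers, where they measured between 0.9 and 1.4 mm, so stamens and gynoecia differ in flower stage as well as in organ. Stamen groups were wild type (n = 3), arf6arf8 (n = 2) and mARF8 (n = 4). The gynoecium groups were again wild type (n = 4), arf6arf8 (n = 2) and mARF8 (n = 4), joined by axr3 (n = 4) and by arf6axr3 (n = 4). The arf6arf8 plants were mutant in both ARF6 and ARF8, related auxin response factors that act in flower maturation. The mARF8 plants carried an added genomic ARF8 gene that the microRNA miR167 cannot target, besides their own ARF8. By title, mARF8 stamens 1 and 3 came from line 3B, 2 from line 4B and 4 from pooled T1 plants, and mARF8 gynoecia 1 to 3 came from line 3B while the title of 4 names no line. The axr3 plants (Pstk_axr3) made a stabilised IAA17, a repressor of auxin response, from the SEEDSTICK (STK) promoter, and arf6axr3 plants (arf6 Pstk_axr3) also carried an arf6 mutation. Of the axr3 libraries, 3 was line 15-5, 4 was an F1 of Columbia and line 25-2, and 1 and 2 name no line. Of the arf6axr3 libraries, 1 and 3 were line 15-5, and 2 and 4 were line 25-2.

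Cytokinin is sensed by histidine kinase receptors (AHK), which pass phosphate through the AHP proteins to the type-B response regulators. Type-B regulators are transcription factors that switch on target genes, among them the type-A ARR genes, whose products dampen the same pathway as negative feedback. The CKX enzymes degrade cytokinin irreversibly, so ARR and CKX transcripts mark different ways of limiting a cytokinin signal, at reception and at the supply of the hormone. In flowers, loss of CKX3 together with CKX5 is known to give larger inflorescences and gynoecia with more ovules, and auxin response factors are known to repress ARR7 and ARR15 in the shoot meristem.

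The stretch of 250 bases before the annotated start of each gene was read from the RefSeq genome TAIR10.1. The windows of ARR5 and ARR7 are shown because both transcripts rose in mARF8 stamens and both fell in arf6arf8 gynoecia, and those of CKX3 and CKX5 because these had the highest stamen levels of the 4 oxidases and moved in different mutants. Each is given on the strand of its gene, 5′ to 3′, ending at the base before the start, with capitals for any match on either strand to a searched motif. ARR5 lies on the minus strand (window chr3:17760951-17761200), as do ARR7 (chr1:6579315-6579564), CKX3 (chr5:23048293-23048542) and CKX5 (chr1:28318376-28318625).
ARR5: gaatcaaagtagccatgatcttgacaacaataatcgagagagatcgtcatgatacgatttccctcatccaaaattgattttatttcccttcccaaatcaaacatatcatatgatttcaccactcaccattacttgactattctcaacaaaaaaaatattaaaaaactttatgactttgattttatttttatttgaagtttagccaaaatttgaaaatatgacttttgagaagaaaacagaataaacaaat
ARR7: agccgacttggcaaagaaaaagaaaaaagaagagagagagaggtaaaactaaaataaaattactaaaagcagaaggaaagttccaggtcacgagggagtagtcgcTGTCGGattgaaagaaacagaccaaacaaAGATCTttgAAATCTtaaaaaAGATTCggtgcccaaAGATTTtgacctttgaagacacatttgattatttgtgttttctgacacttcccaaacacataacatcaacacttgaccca
CKX3: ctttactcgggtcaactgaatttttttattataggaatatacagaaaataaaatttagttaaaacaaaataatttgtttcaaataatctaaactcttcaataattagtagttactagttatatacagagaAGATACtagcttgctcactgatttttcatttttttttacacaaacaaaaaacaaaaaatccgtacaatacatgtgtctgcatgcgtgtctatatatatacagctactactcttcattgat
CKX5: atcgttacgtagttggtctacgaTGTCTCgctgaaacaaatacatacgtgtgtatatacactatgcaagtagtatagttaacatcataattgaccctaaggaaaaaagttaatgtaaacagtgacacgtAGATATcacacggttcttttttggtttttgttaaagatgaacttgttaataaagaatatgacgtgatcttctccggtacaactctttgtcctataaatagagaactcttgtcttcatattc

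The type-B motifs searched, hexamers that type-B regulators are known to bind, were AGATAC with its variant AGATAT, then AGATCC with the palindrome AGATCT, and last AGATTC with its variant AGATTT. The auxin response elements searched were TGTCTC and, as a further form, TGTCGG. Both strands were read, and AGATCT, being its own reverse complement, was counted once. Of 27437 windows in the genome, 66.3% held at least 1 type-B motif, 10.9% held TGTCTC and 4.16% held TGTCGG. ARR7 had 4 type-B motifs, between 116 and 80 bases before the start, and TGTCGG at 145. CKX3 had 1 type-B motif at 120 bases, and CKX5 had 1 at 121 with TGTCTC at 227. In the windows not printed, ARR6 had 3 type-B motifs, ARR16 had 4, CKX6 had 2, and CKX7 had 4 with 1 TGTCTC. No letters of these motifs occurred in the windows of ARR4, ARR5 and ARR15, which says nothing about binding elsewhere or of other forms. Within the 10 genes, 7 thus held a type-B motif, against the 66.3% of all windows.

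Each library held between 3692975 and 15374607 counted reads, with the fewest per library in mARF8 gynoecia and wild-type stamens, and levels are read counts scaled to the library total (CPM). A level of 3 reads corresponded to between 0.195 and 0.812 CPM, and such floors and the counts behind them cover counting error only. The labels do not say whether replicates were separate plants, so p-values measure only the spread between these libraries, which may be technical. The altered genes went with the labels: ARF6 read 128 and 138 CPM in gynoecia of arf6arf8, where the wild type had 434 to 572, and 21.8 and 25.0 CPM in its stamens, where the wild type had 76.0 to 88.9. ARF8 stood in mARF8 replicates 1 to 4 at 490, 555, 255 and 501 CPM in stamens (wild type 51.0 to 71.7) and at 791 to 1254 CPM in gynoecia (wild type 377 to 403). IAA17 ranged over 65.5 to 82.6 CPM for axr3, over 26.2 to 36.8 for arf6axr3 and over 8.24 to 14.2 for wild-type gynoecia. ARF6 ranged over 56.9 to 60.9 CPM for arf6axr3. In mARF8 stamens IAA17 was also higher than in wild type (log2 fold change 1.61, edgeR quasi-likelihood test, adjusted p = 0.012). By the same test ARF6 was slightly lower there (−0.29, adjusted p = 0.0373), with overlap. The summed level of the stamen and petal identity genes AP3 and PI was 824 to 1276 CPM in stamens and 8.58 to 30.1 in gynoecia, and that of 7 gynoecium genes was 15.4 to 24.1 CPM in stamens and 253 to 497 in gynoecia. In whole organs, fewer cells of a type and less RNA per cell cannot be told apart.

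Wild-type stamens and gynoecia held most members at different levels. Per kilobase of exon, the highest mean levels in stamens were 31.5 CPM per kb for CKX3, 23.4 for ARR4, 21.4 for CKX5, 21.0 for ARR16 and 20.3 for ARR6. In gynoecia they were 21.7 CPM per kb for CKX7, 17.3 for ARR7 and 10.3 for ARR4, and each other member was at 4.63 CPM per kb or below. A fit over both tissues called 9 of the 10 members different between the wild-type organs (7 higher and 2 lower in stamens, edgeR quasi-likelihood test, adjusted p under 0.05), where 81.0% of all loci were called (41.4% higher and 39.6% lower). Of the called loci 51.1% were higher in stamens, and 33.5% when libraries were scaled by their totals, which moved the median log2 fold change of all loci from 0.02 to −0.66. All 10 members had ranges of CPM that did not overlap, as did 83.3% of all loci. The share of members was thus near the background, and a difference between the organs is not particular to them. Their median log2 fold change was 2.03, against 0.02 over all loci tested. Scaling mattered here, since normalization factors ran from 0.696 to 1.17, low in stamens and high in gynoecia.

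**Figure D1:**
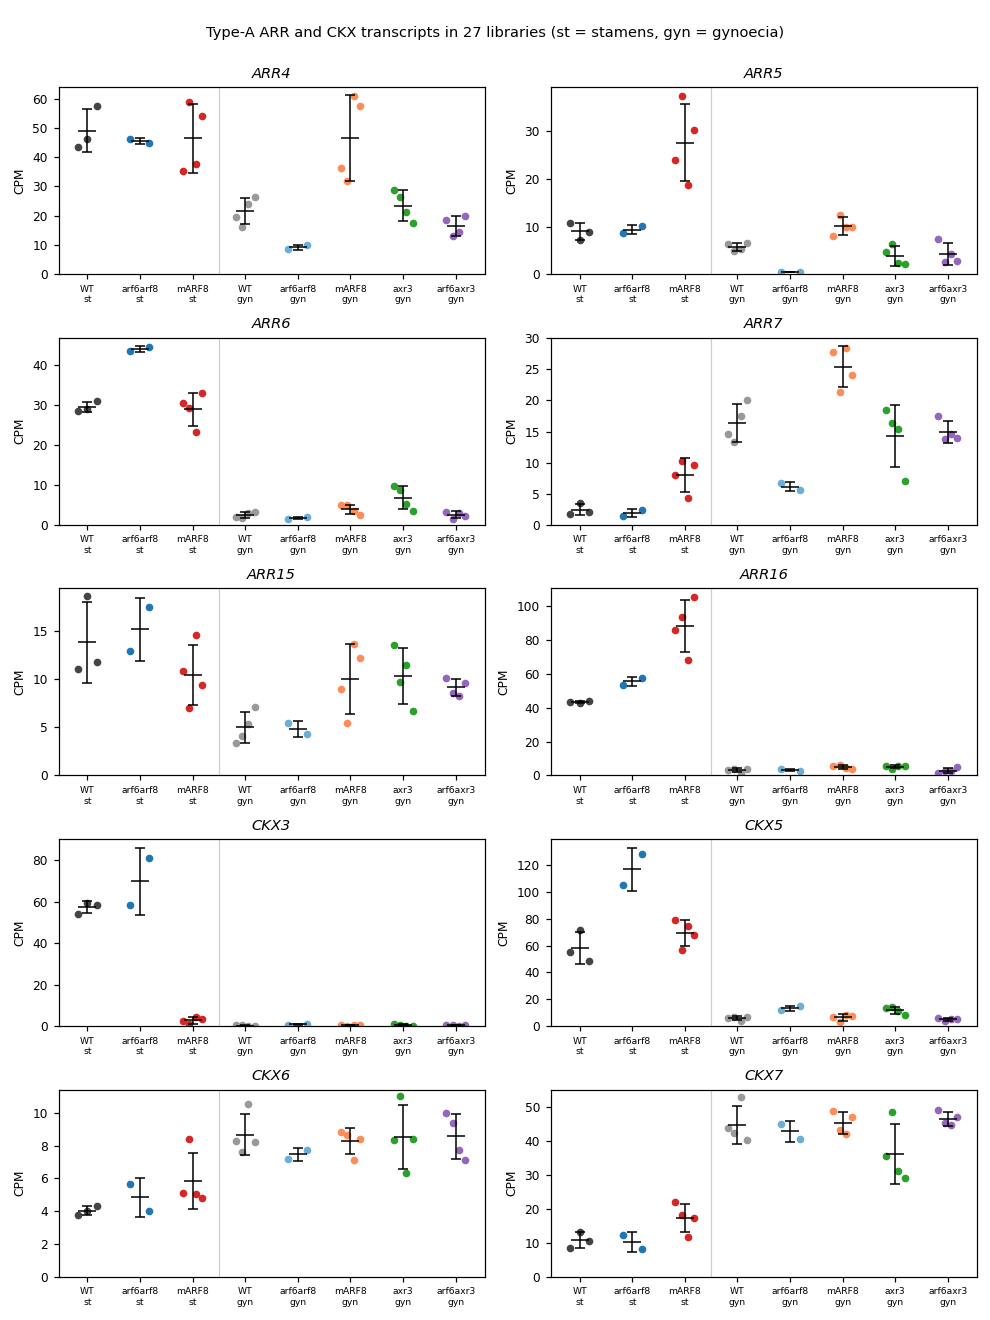
Level of each of the 10 genes in CPM (linear axis from 0) in the 27 libraries, by group, with stamens left of the grey line and gynoecia right of it. Points are libraries, and the black bar and whiskers are the mean and SD. CKX3 is at 53.9 CPM or above in wild-type and arf6arf8 stamens and at 4.35 or below in every other library, and ARR7 and CKX7 are higher in gynoecia than in stamens of the wild type.

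Among the response regulators, ARR16 stood apart most in the wild type. ARR16 was at 43.4, 43.0 and 44.2 CPM in wild-type stamens, and at 3.46, 3.81, 1.46 and 3.67 CPM in wild-type gynoecia. The stamen libraries were close together and all above the gynoecium libraries, with a log2 fold change of 4.43 (SE 0.22, adjusted p = 1.64e-14). ARR6, a close relative of ARR5 in the family of feedback repressors, was at 28.6, 29.0 and 31.0 CPM in stamens, beside 1.98, 1.78, 2.91 and 3.12 CPM in gynoecia (log2 fold change 4.31, SE 0.27, adjusted p = 8.46e-13). ARR4, whose protein is known to interact with the photoreceptor phytochrome B, was at 43.6, 46.3 and 57.3 CPM in stamens, beside 19.7, 16.2, 24.0 and 26.4 CPM in gynoecia (log2 fold change 1.89, SE 0.22, adjusted p = 3.69e-08). For both genes all stamen libraries lay above all gynoecium libraries.

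ARR15 was at 11.0, 18.7 and 11.8 CPM in wild-type stamens and at 3.36, 4.14, 5.34 and 7.13 CPM in gynoecia, without overlap (log2 fold change 2.18, SE 0.30, adjusted p = 5.72e-07). ARR5, whose promoter is widely used as a cytokinin reporter, was at 10.8, 7.26 and 8.84 CPM in stamens, beside 6.23, 4.82, 5.18 and 6.57 CPM in gynoecia. Its stamen libraries were higher by 1.33 on the log2 scale (SE 0.33, adjusted p = 0.000823), but scaling by library totals gave 0.64 with an adjusted p of 0.085, which ends the call. ARR7 ran the other way, at 1.75, 3.45 and 2.04 CPM in stamens and 14.5, 13.4, 17.5 and 20.0 CPM in gynoecia (log2 fold change −2.02, SE 0.33, adjusted p = 5.41e-06). Every gynoecium library lay above every stamen library for ARR7.

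Among the oxidases, CKX3 was at 53.9, 59.3 and 58.5 CPM in wild-type stamens. In wild-type gynoecia it had 3, 4, 1 and 1 reads, or 0.297, 0.338, 0.162 and 0.111 CPM, so its log2 fold change of 8.48 (SE 0.36, adjusted p = 1.23e-15) rests on 9 reads on the gynoecium side. CKX5 was at 55.1, 71.3 and 48.3 CPM in stamens, beside 6.23, 6.94, 3.56 and 6.57 CPM in gynoecia, far apart in every library (log2 fold change 3.97, SE 0.22, adjusted p = 1.29e-13). CKX7, which encodes the cytosolic member of the enzyme family, was at 8.52, 13.2 and 10.4 CPM in stamens, beside 43.6, 42.2, 52.8 and 40.1 CPM in gynoecia (log2 fold change −1.35, SE 0.19, adjusted p = 1.07e-06). Its gynoecium libraries were all higher. CKX6 was at 3.76, 3.99 and 4.31 CPM in stamens and 8.31, 7.61, 10.5 and 8.24 CPM in gynoecia. CKX6 libraries did not overlap in CPM, yet its log2 fold change of −0.41 (SE 0.22) was not called (adjusted p = 0.0927), while library totals gave −1.09 with an adjusted p of 9.76e-05.

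Stamens of mARF8 plants held more ARR5, ARR7 and ARR16 and far less CKX3 than wild type. Of the 10 members, 3 were called higher and 1 lower, against 20.4% and 16.6% of all loci and 37.0% in either direction, so the 4 called are near the background and are not read as a result about the members. Of the called loci 55.1% were higher, and 68.8% with library totals, where the median of all loci moved from 0.09 to 0.25. The members' median log2 fold change was 0.23 and that of all loci tested was 0.09. CKX3 was at 2.48, 0.780, 4.35 and 3.27 CPM in mARF8 replicates 1 to 4, against 53.9 to 59.3 CPM in wild type. These libraries, of 2 lines and a pool of T1 plants, were all far below the wild-type libraries, and CKX3 fell by 4.45 on the log2 scale (SE 0.35, adjusted p = 0.000365). CKX5, CKX6 and CKX7 were not called, with log2 fold changes of 0.10, 0.36 and 0.50 and adjusted p from 0.131 to 0.671. CKX5 was at 78.8, 56.4, 74.7 and 68.2 CPM, overlapping wild type, while CKX6 was at 5.13, 8.39, 5.05 and 4.81 CPM and CKX7 at 22.0, 18.1, 11.8 and 17.1 CPM. All 4 CKX6 values lay above those of wild type, and CKX7 overlapped it in replicate 3 alone. In all, 5 of 10 members did not overlap with wild type, as did 47.8% of all loci.

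ARR5 was at 23.9, 37.5, 18.7 and 30.2 CPM in mARF8 stamens, each above the highest wild-type stamen library at 10.8. It rose by 1.44 on the log2 scale (SE 0.23, adjusted p = 0.0037). ARR16 was at 85.9, 93.5, 68.5 and 105 CPM, all above the narrow wild-type range of 43.0 to 44.2, and rose by 0.84 (SE 0.12, adjusted p = 0.00242). ARR7 was at 7.97, 10.3, 4.26 and 9.63 CPM against 1.75 to 3.45 in wild type and rose by 1.50 (SE 0.37, adjusted p = 0.0154). Its libraries did not overlap with wild type, but the call was lost without wild-type stamens 1 or 3, where the highest adjusted p was 0.0682, and in the low-numbered libraries, with an adjusted p of 0.114. ARR4 was at 35.4, 58.9, 37.5 and 53.9 CPM, ARR6 at 30.5, 29.3, 23.3 and 32.9, and ARR15 at 10.8, 7.02, 14.5 and 9.43. These 3 overlapped wild type and were not called, with log2 fold changes of −0.26, −0.20 and −0.53.

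The mARF8 stamen libraries differed among themselves in ARF8, in stage markers and in the members. Replicate 3 had the lowest ARF8 (255 CPM), the highest CKX3 (4.35) and the lowest ARR5, ARR7 and ARR16, while replicate 2 had the highest ARF8 (555 CPM), the lowest CKX3 (0.780) and the highest ARR5 and ARR7. By title replicate 3 shares line 3B with replicate 1, whereas the genotype tags give line 4B for all 4. A fit with mARF8 stamens of line 3B alone called 4656 of 18410 loci against wild type. The part of line in these differences between replicates was not tested. The summed level of 11 late pollen genes was 278, 138, 512 and 304 CPM in mARF8 replicates 1 to 4, against 915 to 1252 in wild type, and 8 of the 9 tested were called lower. GEX2 of that list had no read in either group. That sum was also lower in arf6arf8 stamens, at 652 and 769 CPM, where CKX3 stood at 58.5 and 81.3 CPM. The 7 anther genes summed to 139 to 271 CPM in mARF8 against 41.7 to 59.5 in wild type. Of these only 2 were tested, and 2 were called higher, with DYT1 and TDF1 at 0 in both groups. The 9 heat shock genes summed to 52.0 to 514 CPM against 15.6 to 59.4, with 1 of 5 tested called higher. The part of these markers in the CKX3 and ARR results was not tested.

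**Figure D2:**
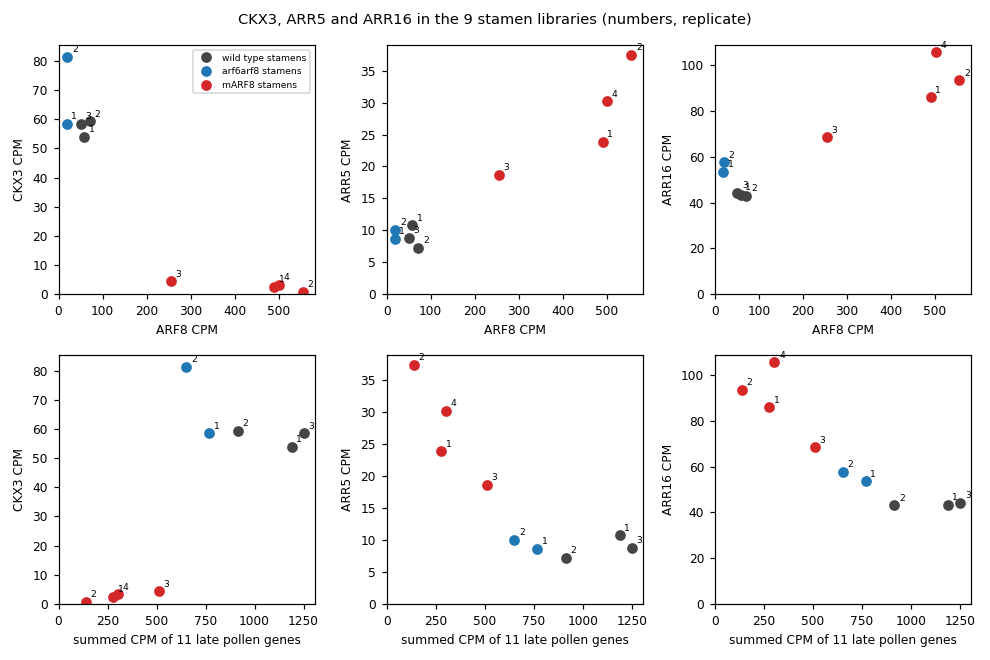
CKX3, ARR5 and ARR16 (CPM, vertical axes from 0) in the 9 stamen libraries against ARF8 (CPM, upper row) and the summed CPM of 11 late pollen genes (lower row), with replicate numbers beside the points. The 4 mARF8 libraries lie apart from the others on every axis, and within them replicate 3 is the nearest to wild type in CKX3, ARR5 and ARR16.

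In arf6arf8 stamens 0 of the 10 members were called, against 4.39% of all loci (1.34% higher and 3.04% lower). The share of called loci that were higher was 30.6%, and 47% with library totals, where the median of all loci moved from 0.01 to 0.16. By unadjusted p under 0.05 there were 2, a threshold at which the share of all loci was not counted. DESeq2 called 1 member (CKX5), where it called 1375 of 18828 loci. A fit of only these groups called 2 (CKX5 and ARR6), where it called 3530 of 17967 loci. These counts are not read as a result about the members. The members' median log2 fold change was 0.06 against 0.01 over all loci. CKX5 was at 105 and 128 CPM in arf6arf8 against 48.3 to 71.3 in wild type, a log2 difference of 0.86 (SE 0.21, adjusted p = 0.0522). Both libraries lay above wild type for CKX5, which by DESeq2 gave 0.80 with an adjusted p of 0.0162. ARR6 was at 43.5 and 44.6 CPM against 28.6 to 31.0 (log2 difference 0.43, SE 0.13, adjusted p = 0.106), and ARR16 was at 53.5 and 57.6 CPM against 43.0 to 44.2 (0.21, adjusted p = 0.449). CKX5, ARR6 and ARR16 did not overlap with wild type, 3 of 10 members where 57.3% of all loci did not overlap. The others overlapped: ARR4 was at 46.1 and 44.8 CPM, ARR5 at 8.65 and 10.08, ARR7 at 1.41 and 2.37 and ARR15 at 12.9 and 17.5. CKX3 was at 58.5 and 81.3 CPM, CKX6 at 5.66 and 4.01 and CKX7 at 12.3 and 8.23. With 2 mutant libraries, an interval of 2 SE for CKX3 reached from −0.55 to 0.83 on the log2 scale and that for ARR5 from −0.62 to 0.47.

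Gynoecia of arf6arf8 plants held less ARR4, ARR5 and ARR7 and more CKX5 than wild type. Of the 9 members tested, 3 fell and 1 rose, against 4.97% and 6.18% of all loci and 11.2% in either direction, and CKX3 was too low to be tested. The number called was thus above the background share, in a list chosen with these results known. ARR5 had 7 reads in each arf6arf8 library, 0.480 and 0.4665 CPM, against 6.23, 4.82, 5.18 and 6.57 CPM in wild type. It fell by 3.52 on the log2 scale (SE 0.53, adjusted p = 0.000287) to the lowest of its 8 group levels. ARR7 was at 6.65 and 5.598 CPM against 13.4 to 20.0 and fell by 1.37 (SE 0.24, adjusted p = 0.00123). ARR4 was at 8.50 and 9.80 CPM against 16.2 to 26.4 and fell by 1.18 (SE 0.27, adjusted p = 0.00771). All 3 regulators lay below every wild-type gynoecium library. Of the 9 members tested, only the 4 called did not overlap, where 38.9% of all loci tested did not. CKX3, not tested, did not overlap either.

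In gynoecia of arf6arf8, CKX5 was at 11.8 and 14.6 CPM, above the wild-type range of 3.56 to 6.94, and rose by 1.19 on the log2 scale (SE 0.27, adjusted p = 0.00685). With 2 mutant libraries these calls are sensitive: ARR4 was lost without arf6arf8 gynoecia 1 or 2 (highest adjusted p 0.106) and in the low-numbered libraries (0.0609), and CKX5 was lost without arf6arf8 gynoecia 2 (0.11). The remaining regulators overlapped wild type, ARR6 at 1.51 and 1.93 CPM, ARR15 at 5.42 and 4.26 and ARR16 at 3.56 and 2.60. CKX6 was at 7.20 and 7.73 CPM and CKX7 at 45.0 and 40.5, also overlapping. CKX3 had 10 and 13 reads (0.686 and 0.866 CPM), above the 1 to 4 reads of the wild-type libraries but below the level at which it was tested. Stamen and petal identity genes were also higher in arf6arf8 gynoecia, with both AP3 and PI called and a sum of 28.9 to 30.1 CPM against 8.58 to 14.3. Of 7 gynoecium markers 1 was higher and 3 lower, with an overlapping sum of 448 to 488 CPM against 454 to 497. The 5 ovule markers summed to 100 to 132 CPM against 138 to 161, without overlap, with 0 of 4 tested called and BAN at 0 in both groups. The part of these markers in the ARR and CKX5 results was not tested.

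In mARF8 gynoecia ARR4 was the member called, 1 of 9 tested, where 0.688% of all loci were called (0.295% higher and 0.392% lower). ARR4 was at 36.3, 31.7, 60.9 and 57.4 CPM, all above the wild-type range of 16.2 to 26.4, and rose by 1.13 on the log2 scale (SE 0.21, adjusted p = 0.0147). The call was lost without wild-type gynoecia 2 or mARF8 gynoecia 3 (highest adjusted p 0.0817). Within the low-numbered libraries ARR4 differed by 1.28 (adjusted p = 0.0927) and within the high-numbered ones, 2 wild-type libraries and 1 mARF8 library, by 1.16 (adjusted p = 0.361). The other regulators were not called. ARR15 was at 8.98, 5.42, 13.6 and 12.2 CPM against 3.36 to 7.13, with overlap (log2 difference 1.04, SE 0.26, adjusted p = 0.0706, or 0.0118 by DESeq2). ARR5 was at 7.98, 12.5, 9.80 and 10.0 CPM, ARR7 at 27.8, 21.4, 28.4 and 24.1, and ARR16 at 5.70, 5.96, 4.42 and 3.92. These 3 lay above wild type in all 4 libraries, with log2 differences of 0.81, 0.66 and 0.65 and adjusted p from 0.12 to 0.386. With ARR4 that made 4 members without overlap, where 7.10% of all loci did not overlap. ARR6, at 4.84, 4.87, 3.46 and 2.55 CPM, overlapped wild type. The members' median log2 difference was 0.66, against 0.00 over all loci. The 5 ovule markers summed to 93.7 to 121 CPM in mARF8 gynoecia against 138 to 161 in wild type, with 0 of 4 tested called and BAN at 0 in both groups. Gynoecium markers summed to 405 to 448 CPM against 454 to 497, with 1 of 7 lower and none at 0. The part of these markers in the ARR4 result was not tested.

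The oxidases of mARF8 gynoecia were close to wild type. CKX5 was at 7.12, 2.98, 8.07 and 7.84 CPM, CKX6 at 8.83, 8.67, 7.11 and 8.43, and CKX7 at 48.7, 43.1, 42.1 and 46.9. Their log2 differences were 0.17, −0.05 and 0.03, and all 3 overlapped wild type. CKX3 had 5, 1, 3 and 3 reads (0.271 to 0.712 CPM) and was not tested.

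**Figure D3:**
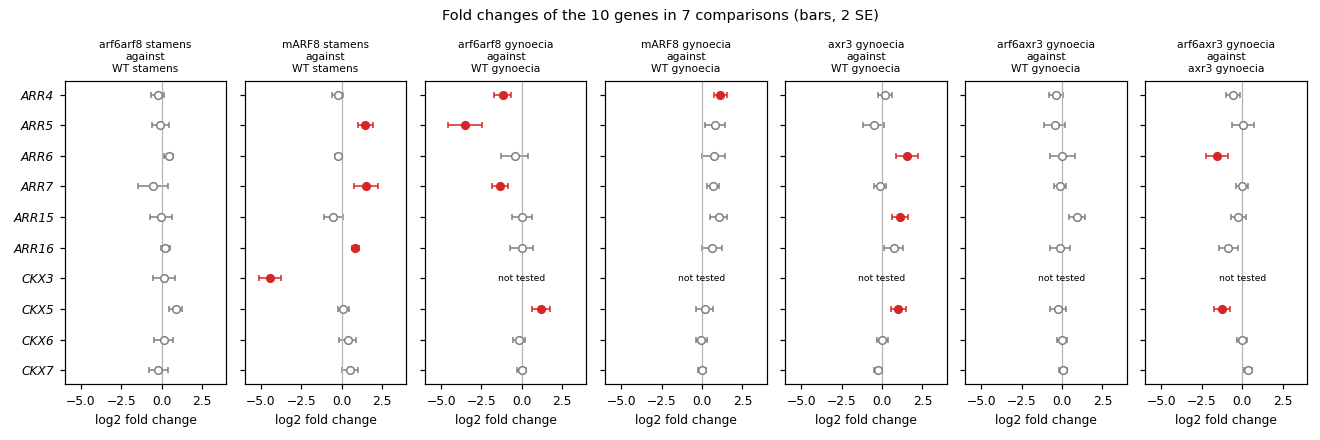
Log2 fold change of each of the 10 genes (rows) in 7 comparisons (panels), with bars of 2 SE from edgeR. Filled red points are called at an adjusted p under 0.05 and open grey points are not, and CKX3 was not tested in gynoecia. ARR5, ARR7 and ARR16 lie to the right and CKX3 far to the left for mARF8 stamens, and ARR4, ARR5 and ARR7 lie to the left for arf6arf8 gynoecia. Panels that name the same wild-type group share its libraries.

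Gynoecia of axr3 plants held more ARR6, ARR15 and CKX5 than wild type. Of 9 members tested, 3 rose and 0 fell, against 8.67% and 7.06% of all loci and 15.7% in either direction. By unadjusted p under 0.05 there were 5, a threshold at which the share of all loci was not counted. ARR6 was at 9.80, 8.74, 5.24 and 3.45 CPM in axr3 replicates 1 to 4, each above the wild-type range of 1.78 to 3.12, and rose by 1.55 on the log2 scale (SE 0.33, adjusted p = 0.00319). ARR15 was at 13.5, 9.73, 11.48 and 6.70 CPM against 3.36 to 7.13 and rose by 1.13 (SE 0.25, adjusted p = 0.00446), with replicate 4 inside the wild-type range. CKX5 was at 13.7, 13.9, 10.9 and 8.04 CPM, all above the wild-type maximum of 6.94, and rose by 1.02 (SE 0.24, adjusted p = 0.00623). ARR6 and CKX5 were the 2 members without overlap, where 19.1% of all loci had none.

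Replicates 1 and 2 of axr3 have low library numbers and 3 and 4 high ones, as do the wild-type gynoecia. Among the low-numbered libraries the log2 differences were 2.34 for ARR6, 1.67 for ARR15 and 1.10 for CKX5, and all 3 were called. Among the high-numbered libraries they were 0.60, 0.62 and 0.94, with adjusted p of 0.422, 0.169 and 0.105, so none of the 3 calls held there. CKX7 was the 1 member called among the high-numbered libraries, lower by 0.57 (adjusted p = 0.0242), against −0.01 among the low-numbered ones. CKX7 stood at 35.6, 48.5, 31.1 and 28.9 CPM in axr3. The 5 ovule markers summed to 110, 34.0, 107 and 22.0 CPM in axr3 replicates 1 to 4 against 138 to 161 in wild type, with 3 of 4 tested lower and BAN at 0 in wild type. Of 7 gynoecium markers 4 were lower, with a sum of 253 to 326 CPM against 454 to 497. The part of library number, line and these markers in these results was not tested.

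The other members overlapped wild type in axr3 and were not called. ARR4 was at 28.8, 26.4, 21.1 and 17.43 CPM, ARR5 at 4.73, 6.43, 2.26 and 2.11, and ARR7 at 18.5, 16.3, 15.4 and 7.09. ARR16 was at 5.52, 3.79, 5.51 and 5.55 CPM and CKX6 at 8.34, 11.1, 6.33 and 8.43, and CKX3 had 7, 4, 3 and 0 reads, the last allowing up to 3 reads. For ARR4, ARR5 and ARR7 the lowest value was in replicate 4, the F1 library. The same held for CKX3, ARR6, ARR15, CKX5 and CKX7, but not for ARR16 and CKX6. The share of all loci lowest in that library was not counted.

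In arf6axr3 gynoecia 0 of 9 members were called against wild type, where 1.72% of all loci were called (1.07% higher and 0.650% lower). By unadjusted p under 0.05 there was 1, ARR15, which DESeq2 also called (adjusted p = 0.0257), among 507 of 18616 loci. The share of all loci under the unadjusted threshold was not counted. ARR15 was at 10.15, 8.52, 8.28 and 9.60 CPM, all above the wild-type range of 3.36 to 7.13 (log2 difference 0.90, SE 0.25, adjusted p = 0.0863). ARR6 was at 3.29, 1.37, 2.99 and 2.26 CPM and CKX5 at 6.17, 3.71, 5.43 and 5.20, both overlapping wild type. ARR4 was at 18.7, 12.9, 14.4 and 19.9 CPM, ARR5 at 7.41, 2.54, 4.21 and 2.82, ARR7 at 17.55, 13.7, 14.5 and 14.0 and ARR16 at 1.65, 2.54, 2.44 and 4.86. CKX6 was at 10.0, 9.37, 7.74 and 7.12 CPM and CKX7 at 49.1, 45.1, 44.7 and 46.9, and CKX3 had 2 to 9 reads. These members overlapped wild type as well, so ARR15 was the 1 member without overlap, where 7.94% of all loci had none.

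Set against axr3, the arf6axr3 gynoecia held less ARR6 and CKX5. Of 9 members tested, 2 fell and 0 rose, where 8.56% of all loci were called (3.63% higher and 4.93% lower). ARR6 fell by 1.55 on the log2 scale (SE 0.33, adjusted p = 0.00561) and CKX5 by 1.25 (SE 0.24, adjusted p = 0.00269), and neither overlapped, where 14.4% of all loci did not. This comparison shares the axr3 libraries with the one above, so a high axr3 value enters both. With the high-numbered libraries alone the log2 differences were −0.92 for ARR6 and −0.96 for CKX5 (adjusted p = 0.2 and 0.079), and with arf6axr3 line 15-5 alone −1.16 and −1.05 (adjusted p = 0.107 and 0.0628), which ends both calls. With arf6axr3 line 25-2 alone the number of members called did not move by over 1.5 times, and the values of single members are not given here. IAA17 was lower in arf6axr3, at 26.2 to 36.8 CPM, than in axr3, so the groups differ in the level of the altered gene besides arf6, and these cannot be told apart. Ovule markers were higher in arf6axr3, with 3 of 4 tested called and a sum of 114 to 155 CPM over the 5 listed, and their part was not tested.

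The effects of the same genotype were then set against each other between organs, in 1 fit over the 27 libraries. For arf6arf8, ARR5 was called, 1 of 10 members where 6.65% of all loci were called (2.86% higher and 3.78% lower). The share of called loci with a higher effect in stamens was 43.1%, but 25.9% with median-of-ratios scaling and 71.4% with library totals. The arf6arf8 effect on ARR5 was higher in stamens than in gynoecia by 3.45 on the log2 scale (SE 0.63, adjusted p = 0.00124): ARR5 stood at 9.36 ± 1.02 CPM (SD, n = 2) in arf6arf8 stamens and 8.96 ± 1.76 (SD, n = 3) in wild-type stamens, but at 0.473 against 5.70 CPM in gynoecia. For mARF8, 3 of the 10 members were called, all with a lower effect in stamens. Of all loci 11.7% were called lower, 14.1% higher and 25.8% in either direction, so the number called in either direction is near the background. The share higher was 54.7% of the called loci, and 78.7% with library totals. The members called were CKX3 (−5.68, SE 0.89, adjusted p = 0.000128), ARR15 (−1.63, SE 0.41, adjusted p = 0.00571) and ARR4 (−1.46, SE 0.30, adjusted p = 0.0013). The value of CKX3 rests on 9 reads in wild-type and 12 in mARF8 gynoecia. ARR4 was at 46.6 ± 14.7 CPM in mARF8 gynoecia (SD, n = 4) against 21.5 ± 4.54 in wild type (SD, n = 4), while in stamens it was at 46.4 ± 11.7 (SD, n = 4) against 49.1 ± 7.28 (SD, n = 3). In the low-numbered libraries the ARR15 difference was −1.92 with an adjusted p of 0.0687, which ends that call. The differences for ARR5, ARR7 and ARR16 under mARF8 were 0.57, 0.75 and 0.15, with adjusted p of 0.35, 0.188 and 0.782, so a difference between organs was not shown for the regulators that rose in stamens.

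Across the 8 groups the members varied over very different ranges. The highest group mean was 308 times the lowest for CKX3, 58.3 times for ARR5, 30.8 for ARR16, 25.6 for ARR6, 22.8 for CKX5 and 13.5 for ARR7. It was 5.36 times the lowest for ARR4, 4.53 for CKX7, 3.14 for ARR15 and 2.16 for CKX6. For CKX3 and ARR5 the lowest mean is itself near the floor of counting, so these ratios are rough. All the ratios here and the orders below use plain CPM, and scaling by TMM changes them between organs. With TMM factors the CKX6 means ran only from 5.66 CPM in wild-type stamens to 7.69 in axr3 gynoecia. Those of ARR4 ran more widely, from 8.18 CPM in arf6arf8 gynoecia to 69.1 in wild-type stamens. In order of mean CPM, ARR4 ran from wild-type stamens through mARF8 gynoecia, mARF8 stamens and arf6arf8 stamens, all overlapping, down to axr3, wild-type and arf6axr3 gynoecia, which overlapped in turn, and to arf6arf8 gynoecia, which stood apart. With TMM factors, mARF8 gynoecia stood below every stamen group in mean ARR4, at 40.5 CPM against 55.0 to 69.1. ARR5 was highest in mARF8 stamens, apart from the next group, and lowest in arf6arf8 gynoecia. For ARR5 too, mARF8 gynoecia moved from rank 2 to rank 4, below the stamens, with TMM factors. ARR16 fell into mARF8, arf6arf8 and wild-type stamens without overlap between neighbours, followed by the gynoecia. ARR7 ran from mARF8 gynoecia, apart from wild-type, arf6axr3 and axr3 gynoecia, which overlapped in turn, down to wild-type and arf6arf8 stamens. Of the 7 neighbouring pairs of groups in each order, all 7 overlapped for CKX6, 6 for ARR15, CKX3 and CKX7, 5 for ARR4, ARR6, ARR7 and CKX5, 4 for ARR5 and 3 for ARR16.

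Among themselves, the most alike members by root mean square difference of centred log2(mean CPM + 0.5) over the 8 groups were ARR4 and ARR15 (0.52), ARR6 and ARR16 (0.52) and CKX6 and CKX7 (0.53). By the same measure over all tested loci, the locus nearest to ARR4 was the type-A regulator ARR9 (0.24), to ARR5 DIN10 (0.52), to ARR6 SRO2 (0.20) and to ARR7 AT4G02420 (0.22). The nearest to ARR15 was UBC29 (0.14) and to ARR16 AT5G37320 (0.20). UBC29 had group means of only 0.237 to 2.54 CPM, and AT5G37320 of at most 0.315 CPM in gynoecia. At such levels the added 0.5 weighs on the match. CKX3 was nearest to PCR11 (0.29), CKX5 to AT1G27860 (0.30), CKX6 to GAMMA CA1 (0.043) and CKX7 to AT4G22760 (0.074). PCR11 stood at a mean of 26.3 CPM in wild-type stamens, 29.4 in arf6arf8 stamens, 2.14 in mARF8 stamens and at most 0.17 in gynoecia, beside 57.2, 69.9, 2.72 and at most 0.776 CPM for CKX3. ARR9 stood at 9.65, 5.47, 17.8, 13.2 and 7.89 CPM in wild-type, arf6arf8, mARF8, axr3 and arf6axr3 gynoecia, beside 21.5, 9.15, 46.6, 23.5 and 16.5 CPM for ARR4.

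A further 47 cytokinin genes were counted by role. In mARF8 stamens 10 rose and 4 fell of 33 tested, with a median log2 fold change of 0.44, where 20.4% of all loci were higher, 16.6% lower and the median was 0.09, so the share called is near the background. LOG3, an enzyme that releases active cytokinin from its nucleotide, was at 0.595 ± 0.544 CPM (SD, n = 4) against 22.7 ± 3.51 in wild type (SD, n = 3) and fell by 5.13 (SE 0.46, adjusted p = 0.000472), and the receptor gene AHK4 fell by 1.06. Among the other oxidases, CKX2 rose by 0.63 and CKX1 fell by 1.03, and CYP735A1, which makes trans-zeatin forms, rose by 1.47. The type-B regulator ARR1 rose by 0.69 and ARR2 fell by 0.48, and the phosphotransfer gene AHP2 rose by 0.66. The cytokinin response factors CRF6 and CRF3 rose by 0.83 and 2.25. Per kilobase, CKX2 stood at a mean level of 34.8 CPM per kb in mARF8 stamens, beside 25.5 for CKX5 and 1.50 for CKX3, and in wild-type stamens at 20.0, beside 21.4 and 31.5.

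In arf6arf8 stamens 0 rose and 1 fell of the 33 (CRF2, by 1.98), where 4.39% of all loci were called. In arf6arf8 gynoecia 2 rose and 3 fell of 30 tested, where 6.18% of all loci were higher and 4.97% lower. There LOG3 fell by 2.54, to 4.76 ± 0.144 CPM (SD, n = 2) against 28.4 ± 7.53 in wild type (SD, n = 4), while ARR9 fell by 0.77, AHP2 fell by 0.24, LOG7 rose by 1.16 and CKX1 rose by 0.91. In mARF8 gynoecia the type-A genes ARR9 and ARR8 rose by 0.90 and 0.63, and no other gene of the 30 was called, where 0.688% of all loci were. In axr3 gynoecia 3 rose and 5 fell, where 8.67% of all loci were higher and 7.06% lower. LOG3 fell by 1.32 and LOG8 by 0.80, the receptor gene AHK3 fell by 0.26, AHP3 rose by 0.24, CRF1 rose by 0.92 and CRF2 fell by 0.31. In arf6axr3 gynoecia CRF2 fell by 0.59 and the other 29 were not called, where 1.72% of all loci were. Against axr3 there were 3 higher and 2 lower, beside 3.63% and 4.93% of all loci. Between wild-type organs 11 were higher and 19 lower in stamens, of 36 tested, where 41.4% of all loci were higher and 39.6% lower, so the share called is near the background.

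Some reads of 3 members cannot be assigned with certainty. ARR6 overlaps AT5G62910 on the opposite strand, CKX5 overlaps UBC16 (AT1G75440) on the opposite strand and a pair of long noncoding RNA loci, and CKX6 overlaps the long noncoding RNA locus AT3G63445. The strand setting of the counting is not given in the sources used here, so reads in these overlaps cannot be told apart. None of the exonic stretches of 50 bases of any member occurred elsewhere in TAIR10.1. In that build ARR6 spans chr5:25252007-25254318, CKX5 chr1:28314458-28318375, CKX3 chr5:23044839-23048292, ARR5 chr3:17758427-17760950 and ARR7 chr1:6577833-6579314, all on the minus strand.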

How the data were processed

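Raw read counts per TAIR locus were used as the authors deposited them, 1 table per library, each with 33602 loci. The submitters' processing notes name TopHat2, HTSeq, edgeR and the build TAIR10. Their versions, order and strand setting are not given in the sources used here. Per the labels, TruSeq mRNA libraries were sequenced on a HiSeq machine to 50 bases. Groups follow sample titles, which in mARF8 stamens and arf6axr3 disagree with the genotype tags on the line.

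The 10 members, the lists and the comparisons were chosen with earlier results of these data known. Loci passed filterByExpr at a minimum count of 10 and a minimum total of 15, and were scaled by TMM and tested with edgeR 4.0.16 (quasi-likelihood, limma 3.58.1, R 4.3.3) in a fit of 9 stamen libraries (18828 loci, 6 residual degrees of freedom), of 18 gynoecium libraries (18616 loci, 13) and of all 27 (20665 loci, 19). Adjusted p-values are from these fits unless an alternative is named beside them. They are by Benjamini and Hochberg over all loci of a comparison, called under 0.05. The SE was computed as the log2 fold change divided by the square root of the F statistic. In all, 10 comparisons gave 100 member tests at most. CPM printed are counts over the library total, and can differ from TMM-scaled levels between organs. Levels per kb use RefSeq exon lengths of TAIR10.1. Not overlapping means that the groups' ranges of CPM do not meet.

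Named were all members, ARF6, ARF8 and IAA17, up to 2 called genes per list with the smallest adjusted p in each mutant comparison, and for each member the locus nearest in pattern. The markers AP3, PI, GEX2, DYT1, TDF1 and BAN and the overlapping gene UBC16 were named besides, after their values were seen. Alternatives were median-of-ratios scaling, library totals (chosen after seeing the data), DESeq2 1.42.0, no filter, a filter of 5 CPM in 2 libraries, fits restricted to the groups compared, a block for the replicate number, single lines, library numbers up to 23 (low) or from 26 (high), and leaving out each library. The scripts' functions were tested on simulated data. No 2 libraries of the same group agreed within sampling noise, and pairs from different groups were not compared in this way.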

Additional observations from a re-analysis of the deposited data

Results flagged for a closer look

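A sample stood far from the others of its group for 3 of 50 gene and group pairs of 4 libraries, where chance gives about 1 in 20. ARR16 in wild-type gynoecia 3 was at 1.46 CPM, with the others at 3.46 to 3.81. ARR16 in axr3 gynoecia 2 was at 3.79 CPM, with the others at 5.51 to 5.55. CKX6 in mARF8 stamens 2 was at 8.39 CPM, with the others at 4.81 to 5.13.

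The effect of a genotype differed between stamens and gynoecia, by the interaction test of edgeR over the 27 libraries, for 4 gene and genotype pairs. Of all loci, 6.65% were called in that test for arf6arf8 and 25.8% for mARF8. The number of members called was near these shares for either genotype. The arf6arf8 effect on ARR5 was higher in stamens by 3.45 on the log2 scale (adjusted p = 0.00124). The mARF8 effect was lower in stamens for CKX3 (−5.68, adjusted p = 0.000128), ARR15 (−1.63, adjusted p = 0.00571) and ARR4 (−1.46, adjusted p = 0.0013).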

How the results depend on the processing

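Of the counts of members called, those that moved by over 1.5 times did so as follows. For arf6arf8 stamens the 0 called became 1 with library totals, 1 with DESeq2 and 2 with only the groups compared. For mARF8 gynoecia the 1 called became 2 with DESeq2, 0 with low-numbered and 0 with high-numbered libraries. For axr3 the 3 called became 1 with high-numbered libraries. For arf6axr3 the 0 called against wild type became 1 with DESeq2, and the 2 called against axr3 (ARR6 and CKX5) were both lost with high-numbered libraries, where CKX7 was the 1 called (0.60, adjusted p = 0.0146), and with line 15-5, where ARR16 was the 1 called (−1.35, adjusted p = 0.0385). For the arf6arf8 difference between organs the 1 called became 2 with only the groups compared. Leaving out 1 library at a time gave 0 to 0 members for arf6arf8 stamens, 3 to 6 for mARF8 stamens, 2 to 4 for arf6arf8 gynoecia, 0 to 2 for mARF8 gynoecia, 3 to 4 for axr3, 0 to 1 for arf6axr3, 2 to 3 for arf6axr3 against axr3, 9 to 9 between organs, and 1 to 1 and 3 to 4 for the differences between organs. With the replicate block the counts were 0, 4, 4, 1, 3, 0, 2, 9, 1 and 3, as without it. Same-numbered libraries had a median correlation of 0.19 in stamens and 0.04 in gynoecia, and 27 of 78 matches were best with their own number, so the numbers were not taken to pair libraries. Of 95 member effects, 40 were called in some setting and none of these changed sign in any alternative run. Of the 55 never called, 28 changed sign somewhere, with log2 effects up to 0.55 in size after the change. Some of the 28 were larger with the sign of the main fit. ARR6 in mARF8 gynoecia was 0.72 in the main fit and ran from −0.27 to 1.23. Over all loci, leaving out 1 library gave 99 to 464 calls for arf6arf8 stamens (826 with all) 2895 to 8789 for mARF8 stamens (6961), 753 to 2285 for arf6arf8 gynoecia (2077), 38 to 173 for mARF8 gynoecia (128), 2213 to 3125 for axr3 (2929), 143 to 373 for arf6axr3 (320), 1082 to 1817 for arf6axr3 against axr3 (1593), 16051 to 16522 between wild-type organs (16738), and 608 to 1374 and 3762 to 7157 for the arf6arf8 and mARF8 differences between organs (1374 and 5338). The lowest counts came without arf6arf8 stamens 1, wild-type stamens 3, arf6arf8 gynoecia 2, mARF8 gynoecia 3, wild-type gynoecia 2 (axr3 and arf6axr3), axr3 gynoecia 2, wild-type stamens 2, arf6arf8 stamens 1 and wild-type stamens 3 in turn. The block gave 257 calls over all loci in mARF8 gynoecia, against 128 without it. Other counts over all loci that moved by over 1.5 times were those of arf6arf8 stamens (1375 with DESeq2, 3530 with only the groups compared, 287 with low-numbered libraries), mARF8 stamens (1325 low-numbered), arf6arf8 gynoecia (1315 low-numbered) and mARF8 gynoecia (335 with DESeq2, 3 low-numbered, 1 high-numbered). The axr3 count became 1105 with low-numbered and 1445 with high-numbered libraries. The arf6axr3 count became 507 with DESeq2, 115 with high-numbered libraries and 85 with line 15-5, and against axr3 it became 721 high-numbered, 797 with line 15-5 and 765 with line 25-2. The arf6arf8 difference between organs became 2213 with library totals, 2681 with only the groups compared and 542 low-numbered, and the mARF8 difference became 3289 with line 3B and 840 low-numbered. Where a group had no library in one number range, that alternative gave no value.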
